A study of Mus musculus with 7 samples.

Results

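The comparison set stimulated Th17 cells against stimulated Th2 cells for binding of BRG1, read by ChIP-seq (sequencing of chromatin pulled down with an antibody) in CD4+ T cells of the mouse. It used 1 BRG1 library of each subset and the input library, which together make up 3 of the 7 libraries of the series. The members were taken by their labelled cell type and treatment, and no measured value chose them. Earlier results of these data were known when the comparison and its rules were set. The other 4 libraries, of stimulated Th1, resting Th2, resting Th1 and naive cells, served only as readouts in regions that they had no part in calling.

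BRG1 is the ATPase of SWI/SNF, a chromatin remodelling complex that uses the energy of ATP to move or evict nucleosomes. The complex has no strong preference for a DNA sequence of its own and is brought to regulatory regions by transcription factors and modified histones. Th17 and Th2 cells are effector subsets that arise from the same naive CD4+ T cells under different cytokines. Th17 cells make IL-17 and act against extracellular bacteria and fungi, while Th2 cells make IL-4, IL-5 and IL-13 and act against helminths.

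Both subsets were raised in a single round of culture from naive CD4+CD62L+ cells, 95% pure, of Balb/c mice aged 4 to 6 weeks. Stimulated Th17 cells were raised with soluble antibodies to CD3 (4 µg/ml) and CD28 (1 µg/ml), with TGF-β (1 ng/ml), IL-1β (10 ng/ml), IL-6 (100 ng/ml) and antibodies to IFNγ and IL-4 (10 µg/ml each). They were then expanded in IL-23 at 10 ng/ml. Stimulated Th2 cells were raised on plates coated with antibodies to CD3 (1 µg/ml) and CD28 (2 µg/ml), with IL-4 at 10 ng/ml, an antibody to IFNγ (10 µg/ml) and IL-2 at 100 U/ml. Both then received PMA (50 ng/ml) and ionomycin (500 ng/ml) for 1.5 h, a drug pair that mimics signalling through the T cell receptor. The form of the CD3 and CD28 signal, the IL-2 and the cytokines all differed between the cultures, so their parts cannot be told apart. Of the libraries used as readouts, resting Th2 cells were raised in the same way as stimulated Th2 cells and left unstimulated. Th1 cells, resting or stimulated, were raised like Th2 cells but with IL-12 (1 ng/ml) and an antibody to IL-4 (10 µg/ml), and the naive cells were not differentiated. The input was DNA of pooled CD4+ T cells without immunoprecipitation, and J1 was the antibody to BRG1. Each library is 1 sample, so the spread between replicates is unknown for every difference below, there are no p-values, and a ratio compares 2 libraries and not 2 cell types. Fewer cells with BRG1 at a region and less BRG1 there in each cell cannot be told apart in such bulk samples. Markers of the subsets could not be looked up without an annotation on the genome build of the files, mm9, so the labelled cell types were not checked, and regions carry coordinates in place of gene names.

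The stimulated Th17 library held 8786251 deposited reads, the stimulated Th2 library 4830623 and the input 3807367. With 1 read kept per 5′ end and strand, stimulated Th17 had 7892944 distinct reads, stimulated Th2 4261900 and the input 3531867. One distinct read was worth 0.127 reads per 1000000 distinct reads (RPM) in stimulated Th17 and 0.235 RPM in stimulated Th2, so the deeper Th17 library resolved lower levels. Chromosome X took 2.20% of the distinct reads of stimulated Th17, 2.90% of those of stimulated Th2 and 4.21% of those of the input. The resting and naive libraries, with 1340208 to 2071800 distinct reads and 28.5% to 41.4% repeated reads, are shallower and more repetitive than the stimulated pair, with 10.2% repeated reads in Th17 and 11.8% in Th2. All intervals are exact 95% intervals that cover counting error only, because each group has 1 library. Copies of 1 molecule made by PCR were not marked, and only repeats with the same 5′ end and strand were removed.

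A smaller share of reads lay in called regions in the stimulated Th17 library than in the stimulated Th2 library. At an equal depth of 4261900 distinct reads, 24644 regions were called over background in stimulated Th17 and 31655 in stimulated Th2. The regions of stimulated Th17 held 8.65% of its reads (8.63 to 8.67), against 16.8% (16.8 to 16.9) for stimulated Th2 in its own regions. The input held 1.51% of its reads in the Th17 regions and 3.21% in the Th2 regions. The Th17 regions covered 6831 kb and the Th2 regions 9384 kb. The shares therefore do not rank the 2 libraries by enrichment over the input. Most regions were narrow in both libraries: 77.6% of Th17 regions and 70.3% of Th2 regions were a single window of 200 bp, and the widest were 2400 bp and 2600 bp. The number of regions followed depth, with 43263 regions in stimulated Th17 when all of its distinct reads were used.

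The lists overlapped in part, and by a smaller share of the longer Th2 list. Of the stimulated Th17 regions, 12049 (48.9%) shared at least 1 bp with a stimulated Th2 region, and 11980 Th2 regions (37.8%) shared at least 1 bp with a Th17 region. The lists were merged into 42890 regions, of which 40726 held at least 10 reads in the pair and were compared.

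Among the 40726 regions, 2973 (7.3%) had higher and 7518 (18.5%) had lower BRG1 reads in stimulated Th17 than in stimulated Th2. Higher or lower means a ratio of RPM of at least 3-fold with an interval that leaves out 1. The median ratio was 0.67, or -0.57 on the log2 scale, with quartiles of 0.40 and 1.41. In 13077 regions called in both libraries the median ratio was 0.76, with quartiles of 0.58 and 1.02. The ratio was 1.06 in 235877 bins of 10 kb that held no called region, so the background lay on the other side of 1 from the median of the called regions. The split therefore rests on the scale: after division by the median ratio, 6091 regions were higher (15.0%) and 3986 lower (9.79%). After division by the ratio of the region-free bins in the surrounding 1 Mb, a scale chosen after the data were seen, 1757 were higher (4.31%) and 10546 lower (25.9%). The regions above were called and counted on the same reads. With regions called on 50% of the reads of each library and counted on the other 50%, 415 of 16564 tested regions were higher (2.51%) and 2262 lower (13.7%).

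**Figure D1:**
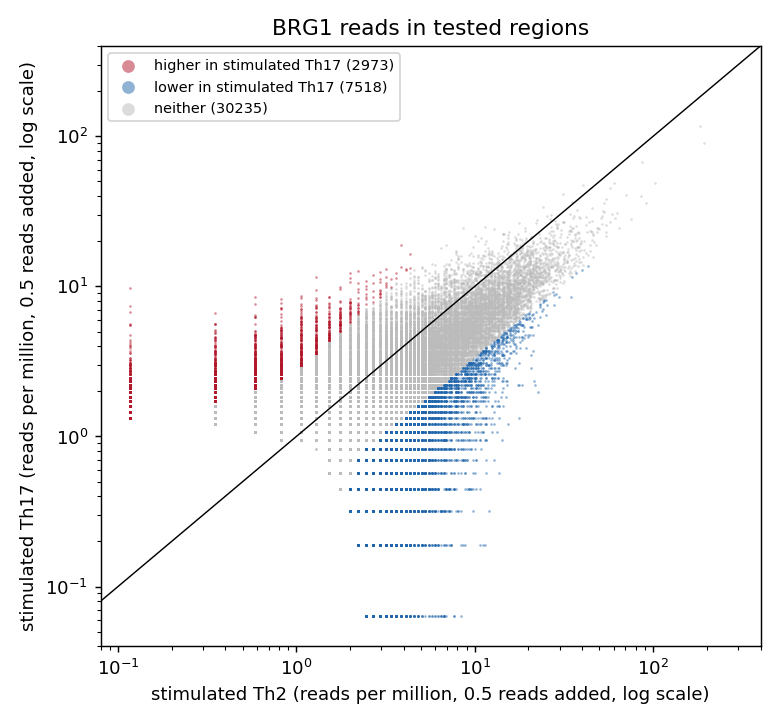
BRG1 reads of each tested region in stimulated Th17 (vertical) against stimulated Th2 (horizontal), in RPM on log scales with 0.5 reads added, with 1 point per region. The 2973 higher regions lie above the diagonal of equal values and the 7518 lower regions below it, and the columns at the left edge are regions with 0 to a few reads in stimulated Th2.

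Regions whose ratio was shown to lie between 0.5 and 2, called alike here, were few and broader than the tested regions in general. Alike does not mean equal, because the interval of an alike region can leave out 1. In 2179 regions (5.35%) the whole interval of the ratio lay between 0.5 and 2, and the median region of this set was 600 bp wide, against 200 bp over all tested regions. Of these alike regions, 20.1% were at least 1 kb wide, against 2.63% of all tested regions. They carried many reads, with medians of 62 in stimulated Th17 and 36 in stimulated Th2, and a narrow interval needs many reads. The interval covered 1 in 22702 regions (55.7%), most of which were not shown to be alike either.

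The 5 alike regions with the most reads were all 1.8 to 2.8 kb wide and had more RPM in every BRG1 library than in the input. On chromosome 11, 98803201 to 98806000, stimulated Th17 had 385 reads (48.8 RPM), stimulated Th2 258 (60.5 RPM) and the input 19 (5.38 RPM). Its ratio was 0.81 (0.69 to 0.95). The libraries outside the pair held 315 reads there in stimulated Th1, 50 in resting Th2, 57 in resting Th1 and 68 in naive. The region on chromosome 2, 127157601 to 127160200, was much the same, with 354 reads in stimulated Th17, 244 in stimulated Th2 and 17 in the input, and its ratio was 0.78 (0.66 to 0.93). On chromosome 3, 90389401 to 90391200, the reads were 302 in stimulated Th17, 233 in stimulated Th2 and 20 in the input, with a ratio of 0.70 (0.59 to 0.83). Each of these 3 ratios lay below 1, but after division by the median ratio they were 1.19, 1.16 and 1.04, in the order given, and no longer below it.

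The 2 alike regions with the highest levels also had high input. On chromosome 11, 3092401 to 3094200, stimulated Th17 had 922 distinct reads (117 RPM), stimulated Th2 781 (183 RPM) and the input 213 (60.3 RPM). Before repeated reads were removed, the region held 5671 deposited reads in stimulated Th17 and 5978 in stimulated Th2. On chromosome X, 166428001 to 166429800, stimulated Th17 had 528 distinct of 1557 deposited reads (66.9 RPM), stimulated Th2 367 of 714 (86.1 RPM) and the input 59 distinct reads (16.7 RPM). The Th17 to Th2 ratios of the 2 regions were 0.64 (0.58 to 0.70) and 0.78 (0.68 to 0.89), in the order given. These 2 regions stood out from the other 3 in input and in repeats, and the part of either in their levels was not tested.

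Of the 2973 regions higher in stimulated Th17, 882 held 0 reads in stimulated Th2, and 2960 were called in stimulated Th17 only. The median region held 17 reads in stimulated Th17 and 1 in stimulated Th2. Only 30 of them (1.01%) were 1 kb or wider. These values describe the choice of the set, which used both libraries. Of all 40726 tested regions, 10681 were called in stimulated Th17 only.

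The highest region lay on chromosome 17, 8434601 to 8435600, and was empty in stimulated Th2. It had 76 reads (9.63 RPM) in stimulated Th17 and 0 in stimulated Th2, with 1 read in the input. Against a floor of 3 reads in stimulated Th2, stimulated Th17 was at least 13.7-fold higher (exact lower bound 10.9). The 76 reads were spread over both strands, 35 on plus and 41 on minus, and stood for 87 deposited reads. Stimulated Th1 had 1 read there, resting Th1 4, and resting Th2 and naive 0.

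The second region lay close by on the same chromosome, at 8427401 to 8428000. It had 58 reads (7.35 RPM) in stimulated Th17 and 0 in stimulated Th2, which is at least 10.4-fold higher with an exact lower bound of 8.22. There were 4 reads in stimulated Th1, while resting Th1 and naive had 1 each, and resting Th2 and the input had 0. Both regions sit in a larger group of higher regions that is described below.

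The third region, on chromosome 2, 43611401 to 43611800, had 53 reads (6.71 RPM) in stimulated Th17, 0 in stimulated Th2 and 3 in the input, at least 9.54-fold higher (exact lower bound 7.49). Next came chromosome 13, 99304801 to 99305400, with 44 reads in stimulated Th17, 0 in stimulated Th2 and 3 in the input. Both were nearly empty in the libraries outside the pair, with 0 reads in the resting and naive libraries. Stimulated Th1 had 4 reads in the region on chromosome 2 and 1 in that on chromosome 13. A further pair had 43 reads in stimulated Th17 and 0 in stimulated Th2: chromosome 12, 56433601 to 56434000, and chromosome 17, 47293201 to 47293800. Stimulated Th1 had 0 reads in each of these 2, and the input had 1.

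Among the remaining 4, chromosome 8, 98376201 to 98376600, had 37 reads in stimulated Th17 and 0 in stimulated Th2, with 8 reads in stimulated Th1, the most of the 10 in that library. Chromosome 7, 72911601 to 72912000, had 52 reads in stimulated Th17 and 1 in stimulated Th2, so its ratio was 28.1 (4.82 to 1130). Chromosome 5, 141244401 to 141244800, had 67 reads in stimulated Th17 (8.49 RPM) and 2 in stimulated Th2 (0.469 RPM), and its ratio was 18.1 (4.82 to 152). The tenth, chromosome 19, 41672001 to 41672400, had 34 reads in stimulated Th17 and 0 in stimulated Th2.

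Pooled over the 10 highest regions, the libraries that took no part in the choice stood near the input. Stimulated Th1 had 27 reads there and the input 16, a ratio of RPM of 1.52 (0.79 to 3.02). Resting Th1 had 8 reads, naive 7 and resting Th2 3, and the intervals of their ratios to the input all covered 1. The 10 regions lay on 8 chromosomes.

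**Figure D2:**
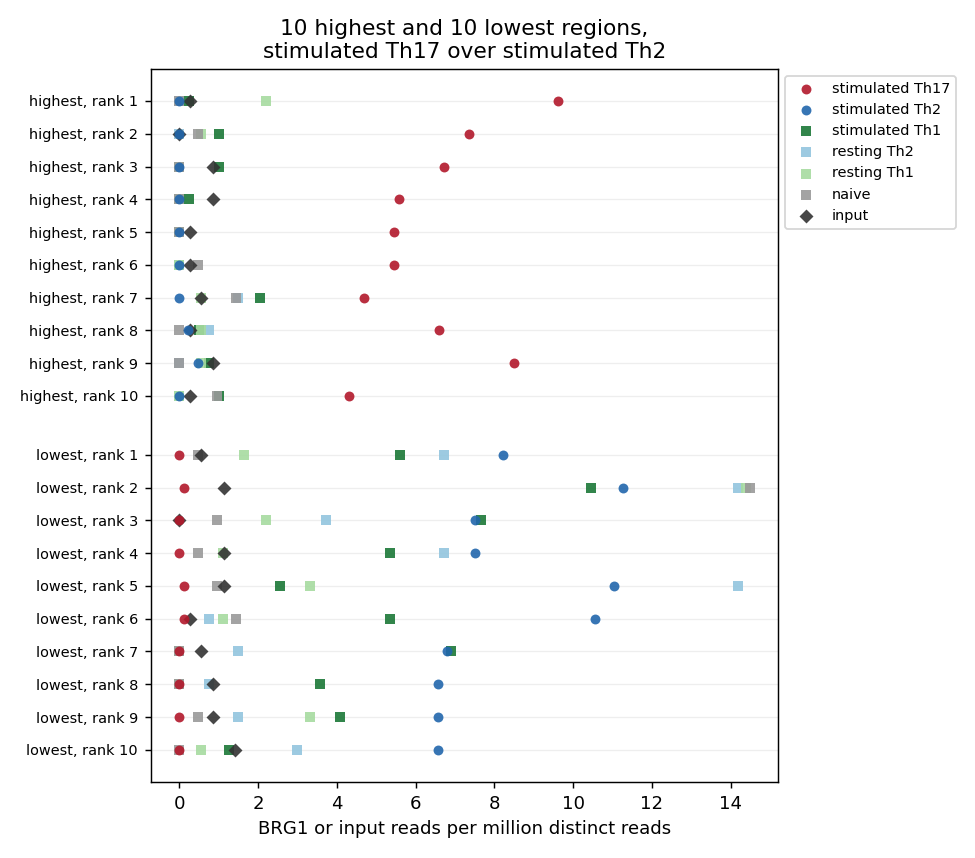
RPM on a linear axis for the 10 highest regions (upper rows) and the 10 lowest regions (lower rows) in the stimulated Th17 to stimulated Th2 comparison, with 1 marker per library. In the upper rows stimulated Th17 stands alone at 4.31 to 9.63 RPM, while in the lower rows stimulated Th2 stands at 6.57 to 11.3 RPM and stimulated Th1 is often near it.

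Of the 7518 regions lower in stimulated Th17, 371 held 0 reads in stimulated Th17, and 7257 were called in stimulated Th2 only. The median region held 5 reads in stimulated Th17 and 15 in stimulated Th2. As with the higher set, few were broad: 64 (0.851%) were 1 kb or wider. These values too describe the choice of the set, which used both libraries. Of all 40726 tested regions, 16968 were called in stimulated Th2 only.

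The lowest region lay on chromosome 13, 45136401 to 45136800. It had 0 reads in stimulated Th17 and 35 (8.21 RPM) in stimulated Th2, with 2 reads in the input. That is at least 21.6-fold lower in stimulated Th17, against a floor of 3 reads in it (exact lower bound 16.7). Stimulated Th1 had 22 reads there, resting Th2 9, resting Th1 3 and naive 1, so all 5 other BRG1 libraries had reads where stimulated Th17 had none.

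The second lowest region stood apart, because every BRG1 library but stimulated Th17 was high in it. On chromosome 11, 51269001 to 51269400, stimulated Th17 had 1 read (0.127 RPM) and stimulated Th2 48 (11.3 RPM), which is 88.9-fold lower in stimulated Th17 (15.2 to 3583). Stimulated Th1 had 41 reads (10.5 RPM), resting Th2 19 (14.2 RPM), resting Th1 26 (14.4 RPM), naive 30 (14.5 RPM) and the input 4 (1.13 RPM). The naive and resting libraries, at 14.2 to 14.5 RPM, thus had as much BRG1 there as the stimulated Th2 library or more.

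The fifth lowest region was highest in the Th2 libraries, at rest and after stimulation. On chromosome 15, 61344001 to 61345000, stimulated Th17 had 1 read and stimulated Th2 47, which is 87.0-fold lower in stimulated Th17 (14.9 to 3510). Resting Th2 had 19 reads (14.2 RPM) and resting Th1 6 (3.32 RPM), with 10 in stimulated Th1, 2 in naive and 4 in the input. The sixth, on chromosome 2, 76097201 to 76097800, had 1 read in stimulated Th17 and 45 in stimulated Th2. There stimulated Th1 had 21 reads, while resting Th2 had 1, resting Th1 2 and naive 3, so the reads lay in stimulated libraries.

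A pair of regions with 0 reads in stimulated Th17 and 32 in stimulated Th2 followed the second. They lay at 44748201 to 44748600 of chromosome 16, where stimulated Th1 had 30 reads, and at 83000801 to 83001000 of chromosome 4, where it had 21. Chromosome 11, 79226801 to 79227000, had 0 reads in stimulated Th17 and 29 in stimulated Th2, with 27 in stimulated Th1. In the region on chromosome 16 stimulated Th2 had 7.51 RPM and stimulated Th1 7.66 RPM, and in that on chromosome 11 stimulated Th2 had 6.80 RPM and stimulated Th1 6.89 RPM, differences smaller than the worth of 1 read.

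The last 3 regions had 0 reads in stimulated Th17 and 28 in stimulated Th2. They lay on chromosome 11, 53089001 to 53089200, chromosome 13, 85498801 to 85499200, and chromosome 14, 62280601 to 62280800. Stimulated Th1 had 14, 16 and 5 reads in them and the input 3, 3 and 5. Other regions also had 0 against 28 reads, and this tie was broken by chromosome name and start.

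Pooled over the 10 lowest regions, stimulated Th1 was well above the input, unlike in the 10 highest. Stimulated Th1 had 207 reads and the input 28, a ratio of 6.67 (4.48 to 10.3). Resting Th2 had 71 reads and resting Th1 50, a ratio of RPM of 1.92 (1.32 to 2.81). Naive had 40 reads, 30 of which lay in the region on chromosome 11 from 51269001.

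Over the full sets, called regions of the stimulated Th1 library overlapped a larger share of the lower than of the higher regions. Stimulated Th1, which the calls did not use, had 29153 called regions of its own with all of its distinct reads. They overlapped 267 of the 2973 higher regions (8.98%), 3579 of the 7518 lower regions (47.6%) and 53.0% of all tested regions. Whether a region is called depends on its reads, and the median stimulated Th1 level was 0.511 RPM in the higher and 2.04 RPM in the lower regions. The input differed as well, at 0.926 RPM per kb over the higher, 2.49 over the lower and 2.85 over all tested regions. The part of these levels in the overlaps was not tested. Over the 21586 regions that were also called in stimulated Th1, the median Th17 to Th2 ratio was 0.60, with 1.24% higher and 16.6% lower. Over the 19140 regions not called in stimulated Th1, the median was 1.01, with 14.1% higher and 20.6% lower. Regions called higher in stimulated Th17 were therefore mostly outside the stimulated Th1 list. The share of lower regions that overlapped the list, 47.6%, was near the 53.0% of all tested regions.

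By density over input, every library outside the pair was lower in the higher regions than over all tested regions. Pooled over the higher regions, stimulated Th1 was 3.86-fold over the input, resting Th2 1.94-fold, resting Th1 2.15-fold and naive 1.69-fold. Pooled over the lower regions, stimulated Th1 was 4.45-fold over the input, resting Th2 3.54-fold, resting Th1 2.36-fold and naive 1.33-fold. Over all tested regions the values were 4.82-fold, 3.34-fold, 2.91-fold and 1.94-fold. Resting Th2 was thus lower over the higher regions than over the lower ones, while naive was below its value over all tested regions in both sets. In the pair itself, which chose the sets, stimulated Th17 was 11.4-fold and stimulated Th2 1.83-fold over the input in the higher regions, and 1.30-fold and 6.54-fold in the lower regions.

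**Figure D3:**
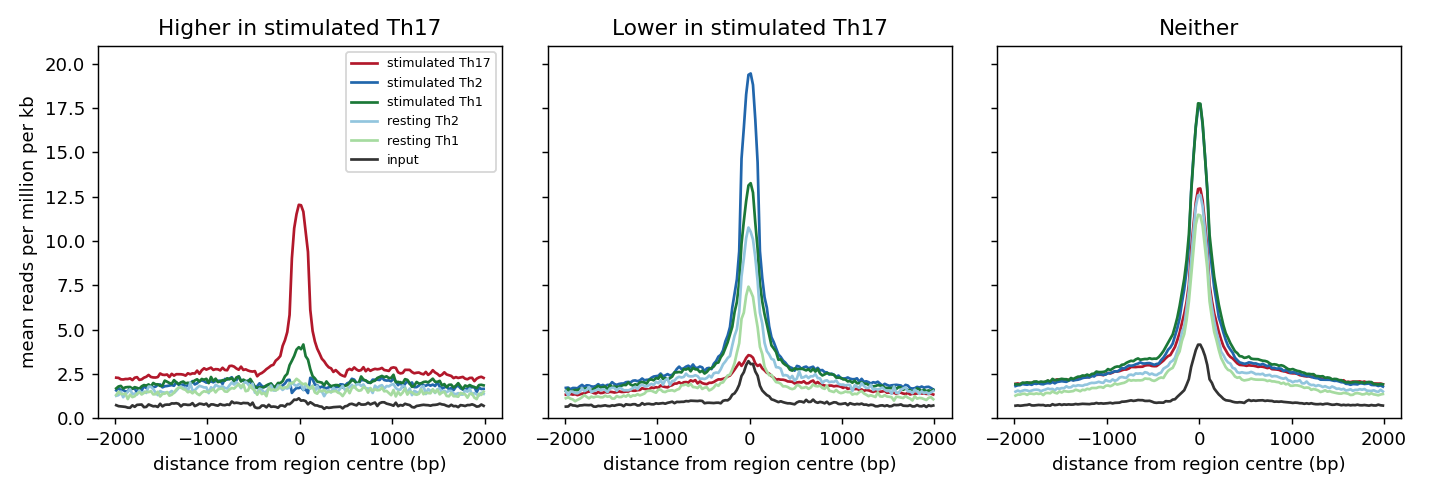
Mean RPM per kb around region centres, by distance in bp, in regions higher in stimulated Th17 (left), lower in stimulated Th17 (middle) and neither (right). Each library has 1 line, except naive, which is not drawn. In the lower regions stimulated Th17 peaks at 3.56, stimulated Th2 at 19.4, stimulated Th1 at 13.3 and the input at 3.22. In the higher regions stimulated Th1 peaks at 4.16 and the input at 1.12, so the input differs between the sets too. The regions were chosen on the reads of the pair.

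The resting libraries gave a readout that shared no library with the pair, and in it the lower regions leaned to Th2. Resting Th2 over resting Th1 was 0.90 (0.85 to 0.95) over the higher regions, 1.50 (1.47 to 1.53) over the lower regions and 1.15 (1.14 to 1.15) over all tested regions. The reads behind these ratios were 1866 in resting Th2 and 2802 in resting Th1 over the higher regions, and 24993 and 22481 over the lower regions. The ratio over the lower regions was above that over the higher regions on 20 of 20 chromosomes, at 1.28 to 1.82 for the lower and 0.49 to 1.14 for the higher regions. The chromosomes were read in the same libraries, so they are not replicates. Some held few higher regions, with 19 on X. Both resting libraries were at rest and without a Th17 partner, so this readout compares Th2 with Th1 and not with Th17.

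The resting ratio changed in steps along the Th17 to Th2 ratio. It was 2.13 (2.03 to 2.23) in the 1704 regions with a Th17 to Th2 ratio under 0.1 and 1.67 (1.61 to 1.73) in the 2262 regions from 0.1 to 0.2. It was 1.33 from 0.2 to 0.333, 1.18 from 0.333 to 0.5, 1.11 from 0.5 to 0.667 and 1.07 from 0.667 to 1. Above a ratio of 2 it no longer changed beyond counting error, at 0.90 from 2 to 3, 0.89 from 3 to 5, 0.89 from 5 to 10 and 0.91 (0.80 to 1.04) in the 1080 regions of 10 and over. In the regions under 0.1, which were chosen for few Th17 reads, stimulated Th17 was at 0.57 of the input density (0.54 to 0.61), against 0.61 to 0.85 in region-free bins of single autosomes and 0.44 on X. Another ratio outside the pair moved as well: resting Th1 over naive was 1.28 (1.21 to 1.35) over the higher regions, 1.78 (1.74 to 1.82) over the lower regions and 1.50 over all tested regions. Its part in the lean to resting Th2 was not tested.

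**Figure D4:**
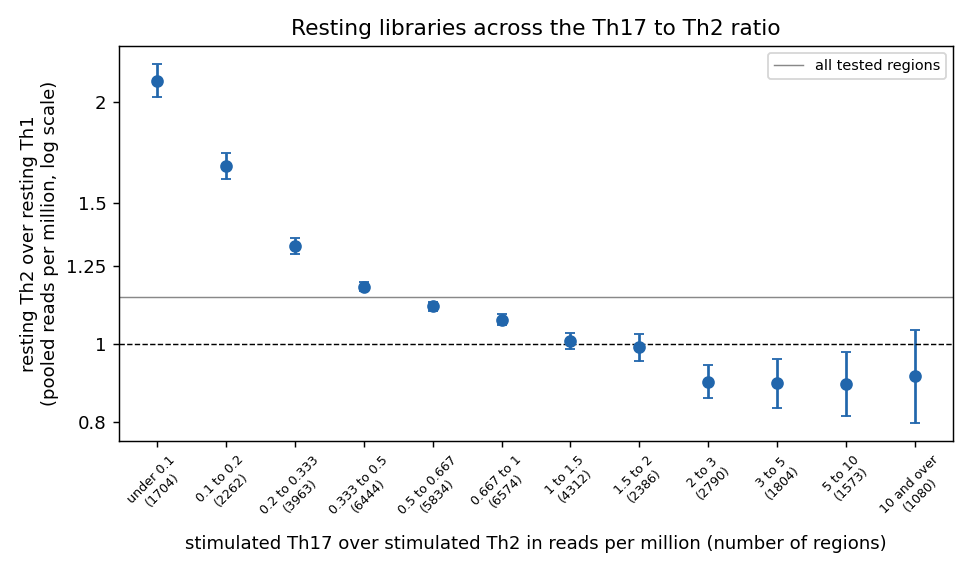
Resting Th2 over resting Th1 (pooled RPM, log scale, with exact 95% intervals for counting error) in 12 classes of regions ordered by the stimulated Th17 to stimulated Th2 ratio, with the number of regions in each class. The points descend from 2.13 in the lowest class to 0.90 at ratios of 2 to 3 and stay flat beyond, and the grey line marks 1.15 for all tested regions.

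The reads just outside the regions differed in the same direction by a smaller amount. At 200 to 1000 bp from the region edges, the Th17 to Th2 ratio was 1.32 (1.30 to 1.33) around higher regions, 0.731 (0.726 to 0.736) around lower regions and 0.952 (0.949 to 0.955) around all tested regions. These flanks can hold neighbouring called regions. The regions were called on reads of both strands, so neither strand gives a readout free of the choice of regions. Counted on 1 strand at a time, 1161 regions (4.05%) were called higher on plus-strand reads, and their minus-strand reads gave a pooled ratio of 2.32 (2.24 to 2.40). The 4221 regions (14.7%) called lower on plus-strand reads had a pooled minus-strand ratio of 0.329 (0.324 to 0.334). In 89.8% of the 1161 regions the minus-strand ratio was above 1, and in 91.2% of the 4221 regions it was below 1. Over all tested regions and both strands the ratio was above 1 in 34.2%, so the 2 shares start from different baselines, and PCR copies of a fragment can give reads on both strands.

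Some called regions of 1 direction lay in groups along the chromosomes. Runs of at least 3 regions of 1 direction, with gaps of up to 50 kb, numbered 202 for higher regions and 637 for lower regions. They took in 799 higher regions (26.9% of them) and 2652 lower regions (35.3% of them). Higher regions were 7.3% and lower regions 18.5% of all tested regions. How often tested regions of any kind fall in such runs was not counted, so the shares in runs have no baseline. After division by the median ratio the runs numbered 612 for higher and 226 for lower regions. The largest run held 12 higher or 23 lower regions.

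Of the 5 large higher groups, the one on chromosome 17, 8383601 to 8445800, had the largest share of its tested regions higher, 12 of 13 in 62.2 kb. Over the whole span, regions and gaps together, stimulated Th17 had 168 RPM, stimulated Th2 32.6 RPM and the input 23.5 RPM. The span ratio was 5.15 (4.32 to 6.18), the highest of the 10 named groups. The highest and second highest regions of the comparison both lay inside it. Stimulated Th1, at 37.5 RPM, and the resting and naive libraries, at 23.2 to 32.3 RPM, had much less than stimulated Th17 over the span.

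The longest of the groups with 12 higher regions lay on chromosome 7, 119326801 to 119483600, with 12 of 15 tested regions higher over 156.8 kb. Its span had 247 RPM in stimulated Th17, 63.8 RPM in stimulated Th2 and 84.4 RPM in the input, a Th17 to Th2 ratio of 3.87 (3.41 to 4.41). Chromosome 9, 68871401 to 69014000, had 12 of 20 regions higher and a span ratio of 2.89 (2.60 to 3.22). Chromosome 16, 38359201 to 38407200, had 12 of 16 in the shortest span, 48.0 kb, and a span ratio of 2.61 (2.28 to 2.99). The fifth, chromosome 9, 13272801 to 13437400, was the most mixed of the 5, with 10 of 22 and a span ratio of 1.77 (1.63 to 1.93).

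The largest lower group held 23 of 38 tested regions over 324.0 kb on chromosome 8, 84132001 to 84456000. Its span had 283 RPM in stimulated Th17, 657 RPM in stimulated Th2 and 203 RPM in the input, a ratio of 0.43 (0.41 to 0.45). Resting Th2 had 660 RPM over the span, resting Th1 451 RPM, stimulated Th1 509 RPM and naive 285 RPM. Stimulated Th17 and naive were thus the 2 lowest BRG1 libraries there, and the 2 Th2 libraries the highest.

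The group with the lowest span ratio lay on chromosome 15, 61228601 to 61378400, and holds the fifth lowest region. There 15 of 18 tested regions were lower, and the span had 77.2 RPM in stimulated Th17, 310 RPM in stimulated Th2 and 95.7 RPM in the input, a ratio of 0.25 (0.23 to 0.27). Resting Th2 had 354 RPM and resting Th1 178 RPM, with 222 RPM in stimulated Th1 and 103 RPM in naive. Stimulated Th17 was below the input over the span, as it also was in the region-free bins of chromosome 15, at 0.73 of the input. The 2 Th2 libraries were again the highest.

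The other 3 lower groups lay on chromosome 2, 9486201 to 9724800, with 17 of 27 regions lower and a span ratio of 0.44 (0.41 to 0.47), on chromosome 11, 20953201 to 21152600, with 15 of 29 and 0.59 (0.56 to 0.63), and on chromosome 10, 98207001 to 98417200, with 13 of 17 and 0.46 (0.42 to 0.49). In the called regions of the 5 lower groups, resting Th2 over resting Th1 was 1.79 (1.29 to 2.48), 2.49 (1.65 to 3.79), 1.57 (0.99 to 2.50), 2.12 (1.52 to 2.98) and 2.16 (1.59 to 2.95), for chromosomes 8, 2, 11, 15 and 10. In 4 of the 5 the interval lay above 1. The called regions of the 5 higher groups had 24 reads or fewer in each resting library. Of these, the group on chromosome 7 had a ratio of 0.22 (0.06 to 0.65), and the intervals of the other 4 covered 1. Over all groups, resting Th2 was above resting Th1 in 87 of 202 higher groups (43.1%) and in 512 of 637 lower groups (80.4%). It was below in 104 higher and 120 lower groups, and equal or with 0 reads in 11 and 5. These groups hold regions already pooled above, and groups of tested regions of any kind were not counted. The ratio over all tested regions was 1.15, so an even split is not their baseline.

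The shares of calls differed between chromosome X and the autosomes, as did the background. In region-free bins the Th17 to Th2 ratio ran from 0.95 on chromosome 3 to 1.19 on chromosome 5 among the autosomes, and was 0.76 on X. The median over tested regions was 0.64 to 0.76 on the autosomes and 0.54 on X. Of the 514 tested regions on X, 3.70% were higher and 26.1% lower, against 5.73% to 8.83% higher and 14.7% to 23.2% lower on single autosomes. The region-free reads of X, with 1 library of each subset, were 0.44 of the input in stimulated Th17 and 0.58 in stimulated Th2, and their part in the calls on X was not tested. X held 19 of the 2973 higher and 134 of the 7518 lower regions, so the counts over autosomes only were 2954 higher (7.35%) and 7384 lower (18.4%).

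**Figure D5:**
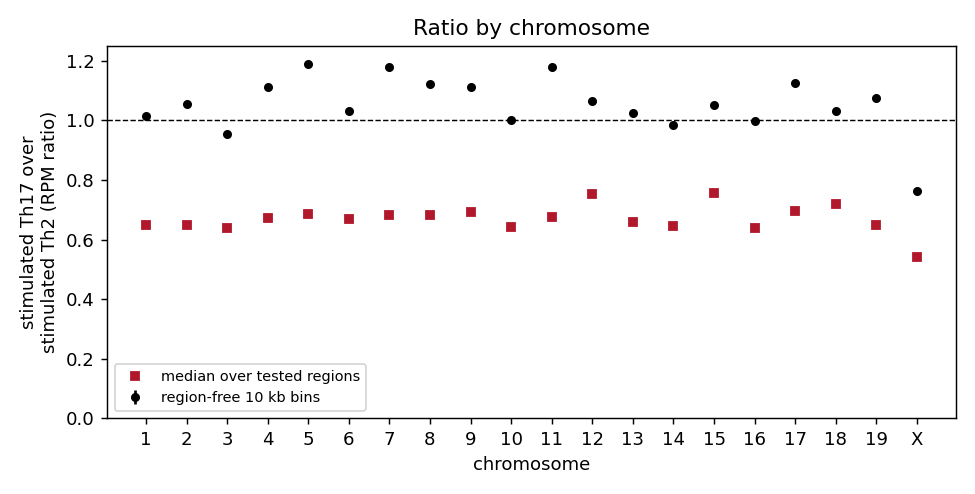
Stimulated Th17 over stimulated Th2 (ratio of RPM) by chromosome, as the median over tested regions (red squares) and in region-free bins of 10 kb (black circles, whose 95% counting intervals are smaller than the markers). On every chromosome the median over regions lies below the ratio of the background, and both are lowest on X, at 0.54 and 0.76.

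The ratio of the background around a region also moved with its call. In the region-free bins of the surrounding 1 Mb, the median ratio was 1.34 for higher regions, 1.16 for lower regions and 1.28 for all tested regions. Single regions varied widely: it ran from 0.57 to 1.80 among the 10 highest regions and from 0.41 to 1.42 among the 10 lowest. With this ratio divided out, 1757 higher and 10546 lower regions were called, as given above. The part of the surrounding background in the calls was not tested.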

How the data were processed

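For every library the authors deposited the positions and strands of its aligned reads, without any count, signal or score. The build is mm9, per the submitters' processing notes, and the deposited reads are 34 bases long. Which aligner and filters made them is not given in the sources used here. Per the labels' protocols, chromatin was cut with micrococcal nuclease and sonication, and DNA went through 18 PCR cycles and a size selection of 250 to 300 bases, so PCR copies are among the deposited reads.

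Here, 1 read was kept for each chromosome, 5′ end and strand, without chromosome Y, and shifted by 75 bp into its fragment. A window of 200 bp was called at a Poisson tail of 1e-05, where the expected count was the highest among the mean of the genome and the input (scaled to the library) within 1, 5 and 10 kb. Windows up to 1 window apart were joined. Stimulated Th17 was thinned to 4261900 distinct reads for calling only. RPM is reads per 1000000 distinct reads. Ratios of merged regions with 10 or more reads in the pair have conditional exact (Clopper-Pearson) 95% intervals. A count of 0 was set to a floor of 3 reads for a bound on the fold, and the exact lower bound also allows for the error of the other count.

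The regions described are the 10 highest and 10 lowest by the interval bound nearest 1, the 5 alike regions with the most RPM and the 5 largest groups in each direction. Lists of subset genes and cell type markers were to be used only with an mm9 annotation. The gene table at hand is on GRCm38, so they were not used and no sequence is printed. The comparison, lists and rules were chosen with earlier results of these data known. The scales by 1 Mb and by chromosome, the 50 bp shift, the calls on 1 strand, and the alternatives for alike regions, groups and the resting ratio were added after seeing the data. The steps were checked on simulated data. Python 3.11.15, NumPy 2.4.6, SciPy 1.17.1, pandas 2.3.3 and matplotlib 3.10.9 were used.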

Additional observations from a re-analysis of the deposited data

How the results depend on the processing

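The counts moved with scale, depth and threshold, and the 10 highest and 10 lowest regions kept their direction. Higher regions, 2973 as reported, numbered 6091 after division by the median ratio, 1757 with the local scale of 1 Mb, 1386 with at least 20 reads, 1849 with both libraries thinned to equal depth, 1974 at a Poisson tail of 1e-07, 5354 with all reads kept, 1161 on plus-strand and 1138 on minus-strand reads, and 415 where 50% of the reads called regions and the other 50% were counted. Lower regions, 7518 as reported, numbered 3986, 10546 and 3735 in the first 3 of these settings, 4221 and 4243 on single strands and 2262 with divided reads, and 11909 at 2-fold and 3966 at 5-fold. The median ratio of 0.67 became 0.55 with input subtracted, 0.63 at equal depth, 0.60 at 1e-07 and 0.74 with all reads kept. Regions called in stimulated Th17, 24644 as reported, numbered 43263 with all distinct reads, 5982 at the depth of the shallowest BRG1 library and 14973 at 1e-07. In stimulated Th2, 31655 became 10950 at that shallowest depth. Shared Th17 regions numbered 7586 at 1e-07. Alike regions numbered 4164 after division by the median ratio and 1408 at equal depth, and groups then numbered 612 higher and 226 lower after that division. Resting Th2 over resting Th1 was 0.84 over higher regions with all reads kept. With divided reads it was 0.92 (0.81 to 1.03) over higher regions, an interval that covered 1. Over lower regions it was 1.78 after division by the median ratio and 1.40 with divided reads. The cause of these moves was not tested, beyond the fewer reads or regions that a setting itself leaves. All 10 highest regions stayed called under the 6 alternatives run on them. Of the 10 lowest, 2 were not called on plus-strand reads alone and 1 on minus-strand reads alone. Of the 5 alike regions, 4 changed to the other side of 1 after division by the median ratio: those on chromosome X at 1.15, on chromosome 11 from 98803201 at 1.19, on chromosome 2 at 1.16 and on chromosome 3 at 1.04. The one on chromosome X was also at 1.20 (1.10 to 1.31) with all reads kept. All 5 stayed within 0.5 to 2. No paired analysis was possible because each group has 1 library. Depth limits single regions most: 1 read is 0.127 RPM in stimulated Th17 and 0.746 RPM in resting Th2, so single regions of the resting libraries rest on few reads.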
